A study of Xenopus laevis with 4 samples.

Results

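The Iroquois (irx) and gbx2 genes encode homeodomain transcription factors that pattern the early nervous system, and their transcripts were followed here in ventral tissue of Xenopus laevis gastrulae after knockdown of sox8. The set was chosen with earlier results of these data known. Its genes were matched by symbol, as irx1 to irx5 and gbx2 with any numbered copy and either homeolog. Homeologs are the .L and .S copies that this allotetraploid frog carries of most genes. RefSeq lists 14 genes with such symbols, and 8 of the 21531 genes tested matched: irx1.L, irx1.S, irx2.L, irx2.S, irx3.L, irx3.S, gbx2.1.L and gbx2.1.S. The other 6, the homeologs of irx4, irx5 and gbx2.2, were not analysed here.

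The comparison had 2 groups with 2 libraries each. The sox8 CRISPR group was ventral mesoderm of gastrulating embryos that received Cas7-11 mRNA together with sox8 guides, where Cas7-11 is an RNA-guided enzyme that cuts transcripts instead of DNA. The control group was the same tissue of embryos that received Cas7-11 mRNA without guides, so both groups carry the enzyme. Both ventral blastomeres were injected early in cleavage, so cells outside that lineage were not targeted, and the labels number the libraries of a group as embryos 1 and 2. In the libraries, full-length cDNA was copied from polyadenylated RNA by Smart-seq2 and amplified without molecular identifiers.

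Iroquois genes act early in Xenopus to define the neural plate, where they are switched on downstream of Wnt signals and favour neural fate. In Xenopus, Irx1 represses transcription of bmp4, the gene of the main ventralizing ligand. Later, the same genes divide the neural plate along its anterior-posterior axis. Gbx2 marks the anterior hindbrain, opposes Otx2 across the midbrain-hindbrain boundary and, in Xenopus, is also a Wnt target at the neural border.

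Between 18189895 and 24108577 reads fell on genes in each library. For the targeted gene sox8, the study took the sequences of both homeologs for its guide design. The homeolog sox8.L fell, with 26.9 and 25.4 normalized counts in sox8 CRISPR, against 508 and 927 in control (log2 fold change -4.66, limma adjusted p = 0.0436). The other, sox8.S, was at 134 and 0 in sox8 CRISPR, against 14.1 and 43.7 in control, and was not called. As many as 3862 genes were listed at 0 in sox8 CRISPR replicate 2 against 667 to 1290 in the other libraries. The ventral markers ventx1 and szl were called lower in all 4 homeologs, with 0.625 to 82.2 normalized counts in sox8 CRISPR, against 1118 to 8152 in control. The ventral marker ventx2 was lower in both homeologs but not called. For ventx2.L there were 471 and 839 in sox8 CRISPR, against 1954 and 2290 in control (limma adjusted p = 0.654). For ventx2.S there were 899 and 1974 in sox8 CRISPR, against 4607 and 7068 in control (limma adjusted p = 0.539). Ventral marker transcripts were thus lower in sox8 CRISPR but not all lost. The mesodermal gene tbxt.L had 5653 and 10617 in sox8 CRISPR, against 5489 and 10121 in control, and tbxt.S had 17460 and 18549 in sox8 CRISPR, against 7919 and 13989 in control (limma adjusted p = 0.890). Of the 72 genes called by limma, sox8.L among them, 0 were called once any 1 library was left out, a fit with a lone library in 1 group, while the log2 fold change of sox8.L stayed between -5.10 and -4.23 over the alternatives.

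Transcripts of irx1 were almost absent from control ventral tissue and present in both sox8 CRISPR libraries. For irx1.S, which lies on chromosome 6S of the v10.1 assembly from 57743244 to 57748197, sox8 CRISPR held 160 and 164 normalized counts, against 4.68 and 0.795 in control. These control values stand for 3 reads and 1 read, whereas sox8 CRISPR held 256 and 136 reads, so the groups lay far apart and the sox8 CRISPR libraries lay close together. Pooled over the libraries of each group and scaled for depth, the reads gave a ratio of 76.6, with an exact 95% interval from 29.7 to 283 that covers counting error only. The log2 fold change was 5.67 (standard error 1.69), with an unadjusted p of 0.00357 and an adjusted p of 0.292 from limma over all genes, so irx1.S did not pass the test. On whole reads recovered from the table it passed with DESeq2 (adjusted p = 0.00126), and the adjusted p ranged from 0.00126 to 0.997 over 14 alternatives.

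The homeolog irx1.L (chromosome 6L, from 71976575 to 71981574) had 162 and 23.0 normalized counts in sox8 CRISPR, against 6.25 and 0 in control. Both sox8 CRISPR libraries again lay above both controls, but they differed from each other far more than those of irx1.S. On the log2 scale irx1.L was 4.54 higher, with a standard error of 2.00, and did not pass (limma adjusted p = 0.699), and no alternative called it.

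The neighbouring Iroquois gene irx2, which shares a cluster with irx1 on both subgenomes, was read mostly from its .S copy. In sox8 CRISPR, irx2.S (chromosome 6S, from 58513502 to 58518876) had 181 and 140 normalized counts, against 6.25 and 11.1 in control. The groups did not overlap, and the pooled reads gave a ratio of 17.6 (exact 95% counting interval from 11.0 to 30.1). On the log2 scale irx2.S was 4.096 higher, with a standard error of 1.44 and a limma adjusted p of 0.50, and it passed only with DESeq2 (adjusted p = 0.0223), with a range from 0.0223 to 0.999 over 14 alternatives.

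Reads of irx2.L (chromosome 6L, from 71457630 to 71462944) were found in a single library. There were 40.0 normalized counts, or 64 reads, in sox8 CRISPR replicate 1, and irx2.L was listed at 0 in sox8 CRISPR replicate 2 and in both control libraries. A count of 0 in sox8 CRISPR replicate 2 allows up to 3.63 normalized counts, well under the value of replicate 1, and counting error is all that this limit covers. The log2 fold change of 2.68 (standard error 2.49, limma adjusted p = 0.864) rests wholly on replicate 1, and without that library it was 0.

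The gene irx3.L had the highest normalized counts of the 8, on a scale that is not per length. It was well represented in control tissue too, and sox8 CRISPR held 381 and 961 normalized counts of irx3.L (chromosome 4L, from 33774565 to 33778405), against 384 and 293 in control. The groups overlapped, since sox8 CRISPR replicate 1 lay between the controls, and only replicate 2 was higher. A log2 fold change of 0.85 with a standard error of 0.77 did not pass (limma adjusted p = 0.864). Without sox8 CRISPR replicate 2 it was 0.18, and without replicate 1 it was 1.51.

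By contrast, irx3.S (chromosome 4S, from 24710466 to 24714270) was nearly silent in control, with 31.9 and 108 normalized counts in sox8 CRISPR, against 3.12 and 0 in control. The 2 control reads of irx3.S gave a pooled ratio of 54.7 with a wide exact 95% counting interval, from 14.9 to 456. Both sox8 CRISPR libraries lay above both controls, and replicate 2 was the higher of them, as for irx3.L. The log2 fold change was 4.88 (standard error 1.99, unadjusted p = 0.0249 and adjusted p = 0.664 from limma), and no alternative called it.

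Gbx2 transcripts were scarce throughout. For gbx2.1.S (chromosome 9_10S, from 73175065 to 73179274) there were 23.7 and 8.46 normalized counts in sox8 CRISPR, or 38 and 7 reads, and none in either control library. Set against the mean of a floor of 3 reads in each control library, the sox8 CRISPR mean was 4.55-fold higher and replicate 2 alone 2.39-fold higher. These ratios allow for counting error in control only. They leave out the error of the 7 reads in replicate 2 and the spread between libraries, so they are not lower limits. The limma test gave an adjusted p of 0.795 for gbx2.1.S. For gbx2.1.L (chromosome 9_10L, from 83218009 to 83222860) the groups overlapped, with 33.7 and 8.46 normalized counts in sox8 CRISPR, against 12.49 and 0 in control. These stand for 54 and 7 reads in sox8 CRISPR, against 8 and 0 in control. On the log2 scale gbx2.1.L was 2.30 higher with a standard error of 2.15 (limma adjusted p = 0.864), and without 1 library that value ranged from 0.43 to 4.18. Neither gbx2.1 gene was called by limma or by any alternative.

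**Figure D1:**
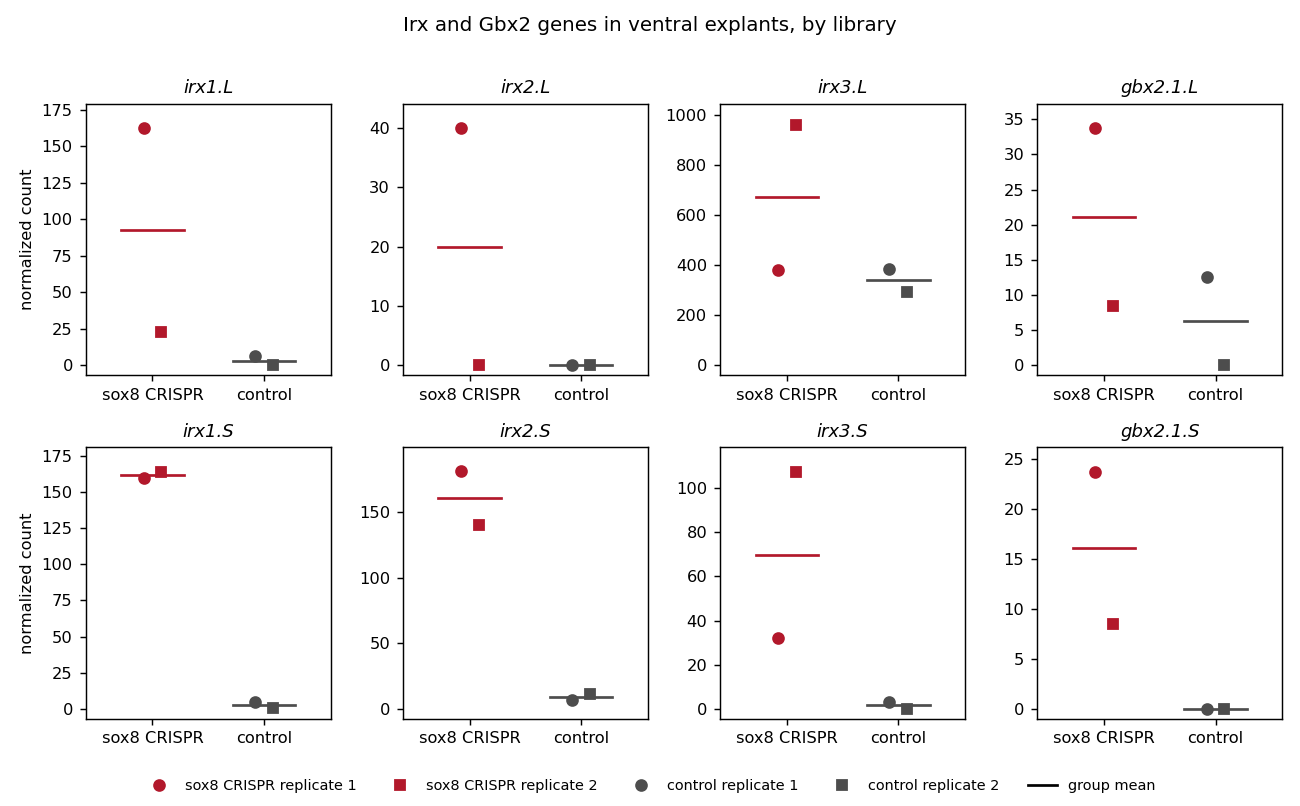
Normalized counts (vertical axes, linear, each gene on its own scale) of the 8 genes in sox8 CRISPR and control libraries, where points are single libraries and bars are group means. In irx1.S and irx2.S both sox8 CRISPR libraries lie together and above both controls, whereas irx2.L is above 0 in sox8 CRISPR replicate 1 alone and the groups of irx3.L overlap.

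Over the 8 genes, limma called 0, where a call asked for both an adjusted p under 0.05 and a log2 fold change beyond 0.58 in size. Of all genes, 0.334% were called, 0.144% higher and 0.19% lower. The 4 genes irx1.L, irx1.S, irx2.S and irx3.S had an unadjusted p under 0.05 and were higher in sox8 CRISPR, which held for 3.01% of all genes. With edgeR the number called was 0 (0.269% of all genes higher), and the unadjusted p of 4 lay under 0.05 (3.66% of all genes higher). DESeq2 called irx1.S and irx2.S, 2 of 8, where it called 1.11% of all genes higher, its unadjusted p was under 0.05 in 4 (5.04% of all genes higher), and it gave no adjusted p for irx2.L and gbx2.1.S. Both sox8 CRISPR libraries lay above both controls in 5 of 8 genes (irx1.L, irx1.S, irx2.S, irx3.S and gbx2.1.S), against 17% of all genes. These shares cannot be read as support for a common rise, since the table was limited to genes with a mean of 5 reads or more, and 7 of the 8 reached that mean only through their sox8 CRISPR reads. Only irx3.L would have passed on its control reads alone. In bulk tissue, more cells that express a gene and more RNA in each cell cannot be told apart.

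**Figure D2:**
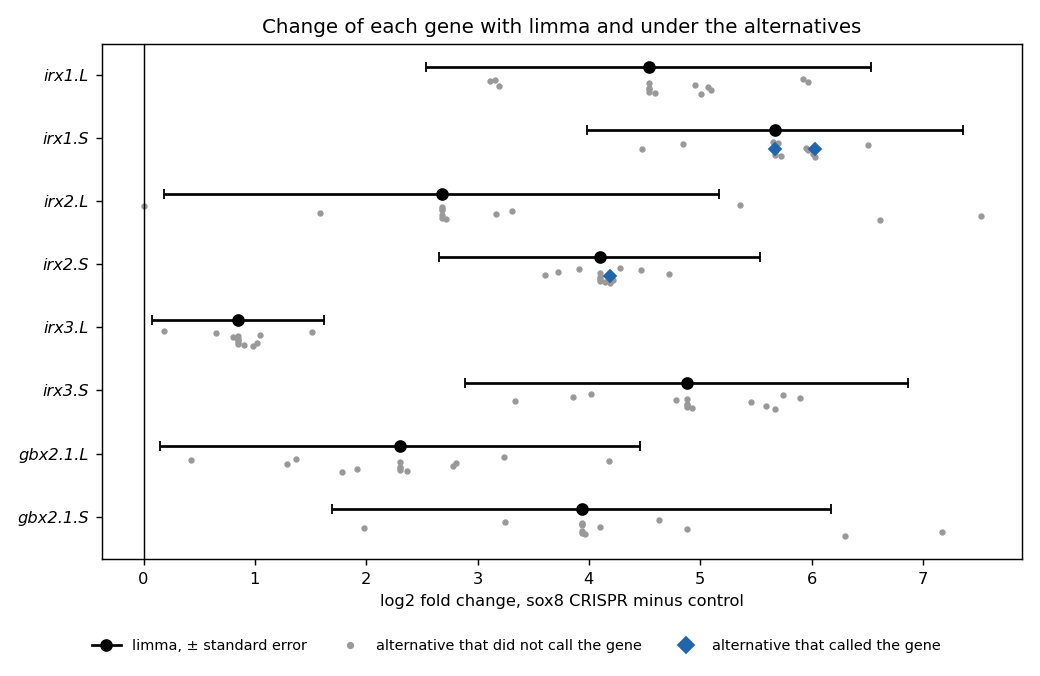
Log2 fold change (sox8 CRISPR minus control, horizontal axis) of each gene in the limma fit, with its standard error as a bar, and under the alternatives as grey points or, where the gene was called, blue diamonds. Diamonds appear at irx1.S and irx2.S alone, from DESeq2 and, for irx1.S, also from a crossed replicate block that called 1.47% of all genes higher. No point lies below 0.

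The replicates of sox8 CRISPR did not share one profile. Irx1.L, irx2.L, irx2.S and both gbx2.1 genes were higher in replicate 1 than in replicate 2, irx3.L and irx3.S were higher in replicate 2, and irx1.S differed least between them.

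Whether the .L and .S copies changed unequally was tested on the difference of their log2 values in each library, over all 5640 homeolog pairs of the table. No pair was called by limma (0.0% of pairs), and 7.15% of pairs had an unadjusted p under 0.05. Among the 4 pairs, irx3 alone was below it: .L exceeded .S by 3.54 and 3.15 on the log2 scale in sox8 CRISPR, against 6.55 and 8.20 in control (difference -4.03, standard error 1.43, unadjusted p = 0.0229, adjusted p = 0.675). Expressed as reads, irx3.L supplied 92.3% and 89.9% of the pair in sox8 CRISPR, against 99.2% and 100% in control. The exact 95% binomial (Clopper-Pearson) intervals of irx3, 90.0% to 94.2% and 87.8% to 91.8% in sox8 CRISPR, against 97.1% to 99.9% and 99.0% to 100% in control, do not overlap between the groups and cover counting error only. Neither the test nor these shares can be read as a shift of irx3 towards .S, since irx3.S passed the filter on low counts only through its sox8 CRISPR reads and irx3.L on its control reads, which favours a lower share of .L in sox8 CRISPR. In irx1 the share of .L was 50.4% (46.0% to 54.8%) of 516 reads in sox8 CRISPR replicate 1 and 12.3% (7.54% to 18.5%) of 155 reads in replicate 2, so the replicates differed by more than counting error. Without sox8 CRISPR replicate 1 the number of called pairs was 752, and the adjusted p of irx3 was 0.0543. How reads that match both homeologs were counted is not given in the sources used here, so each copy's value is uncertain, and the shares are not corrected for transcript length. With homeologs summed before the test, irx1 had a log2 fold change of 5.74 (limma adjusted p = 0.147) and irx2 one of 4.24 (adjusted p = 0.361), irx3 one of 0.98 (adjusted p = 0.839) and gbx2.1 one of 3.14 (adjusted p = 0.803).

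**Figure D3:**
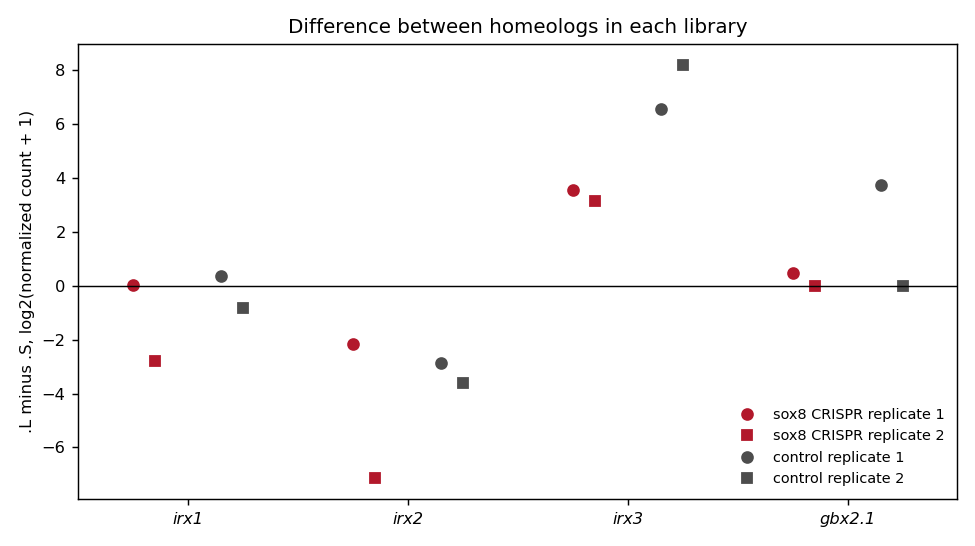
Difference between homeologs (.L minus .S, log2 of normalized count + 1, vertical axis) in each library of sox8 CRISPR and control. The irx3 points lie at 3.54 and 3.15 in sox8 CRISPR and at 6.55 and 8.20 in control, whereas the groups of irx1, irx2 and gbx2.1 overlap. For gbx2.1 that overlap rests on control replicate 2, which held 0 reads of the pair, so its point at 0 comes from the pseudocount alone. The irx1 controls held 7 reads and 1 read of the pair, and the irx2 controls 4 and 14.

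In the genome, irx1 and irx2 lie on the same chromosome, with 513630 bases between them on chromosome 6L and 765304 on chromosome 6S by the RefSeq annotation. No other gene of the table matched to RefSeq lay within 1000000 bases of irx1.S, 1 lay that near to irx1.L, 3 to irx2.L and 2 to irx2.S. The nearest to irx2.L and irx2.S were ndufs6.L, at 726606 bases and a log2 fold change of 0.81, and ndufs6.S, at 817938 bases and 0.73, which encode a subunit of respiratory complex I. The 1 near irx1.L was LOC121394650, at 710221 bases and a log2 fold change of 2.74 (limma adjusted p = 0.864). Around irx3.L, irx3.S, gbx2.1.L and gbx2.1.S there were 10, 14, 16 and 15 table genes, and 0 genes in any of these windows were called. The nearest to each of them had log2 fold changes of -1.73, 0.65, -2.01 and 3.57, in the same order.

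Genes that work beside irx and gbx2 in dividing the neural plate gave few calls. Of 37 genes of an anterior-posterior neural patterning list, 0 were called by limma in either direction, with 5 higher and 4 lower at an unadjusted p under 0.05, and the median log2 fold change was -0.09 beside -0.16 for all genes. With edgeR 1 was called higher and 0 lower, and with DESeq2 1 higher and 3 lower. The partner of Gbx2 at the midbrain-hindbrain boundary, otx2.L, had 385 and 29.0 normalized counts in sox8 CRISPR and was listed at 0 in both controls (limma adjusted p = 0.316). The sox8 CRISPR mean of otx2.L was 58.6-fold the mean control floor of 3 reads, a ratio that allows for counting error in control only. Its homeolog otx2.S had 156 and 0 in sox8 CRISPR, against 0 and 4.77 in control. The paralog gbx1.S lay the other way from gbx2.1, with 39.4 and 9.67 normalized counts in sox8 CRISPR, against 87.5 and 70.0 in control (limma adjusted p = 0.839).

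Genes of 2 posteriorizing signals lay in opposite directions, and neither was called by limma. The ligand gene wnt8a.S, which carries the posteriorizing Wnt signal of the gastrula margin, had 24.4 and 132 normalized counts in sox8 CRISPR, against 857 and 1365 in control (log2 fold change -4.22, limma adjusted p = 0.0585). For fgf8.L there were 1603 and 1820 in sox8 CRISPR, against 379 and 425 in control (log2 fold change 2.09, limma adjusted p = 0.423). Of 34 genes of a Wnt-response list, 0 were called by limma, with 0 higher and 11 lower at an unadjusted p under 0.05. Among all 21531 genes, 1463 had an unadjusted limma p under 0.05 in either direction, and 648 of these were higher. The median log2 fold change of this list was -1.47. The gene bmp4.S fell, with 231 and 321 normalized counts in sox8 CRISPR, against 3426 and 3333 in control (log2 fold change -3.63, limma adjusted p = 0.0254). Its homeolog bmp4.L had 1212 and 1169 in sox8 CRISPR, against 2196 and 3010 in control, and was not called (log2 fold change -1.11, limma adjusted p = 0.817). Of 49 genes of a BMP ventral list, 16 were called lower by limma, against 0.19% of all genes. Whether the bmp4 values are linked to irx1 was not tested. The genes of this paragraph, otx2 and gbx1.S were chosen for their roles after their values were seen.

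The neural plate list gave a mixed picture. In a list of 57 genes, of which 20 were numbered hes5 copies, 4 were called higher and 0 lower, and the median log2 fold change was 0.18. All hes5 copies except hes5.2.L, hes5.8.L and hes5.10.S had a log2 fold change below 0. These copies thus lower the median and add to the counts of lower genes, and neither was computed without them. Of the 4 called, the largest rises were those of foxd4l1.1.S, zic2.S and foxd4l1.2.L, which encode transcription factors of the early neural ectoderm. In sox8 CRISPR foxd4l1.1.S had 4783 and 3315 normalized counts, against 65.6 and 251 in control (log2 fold change 4.94, limma adjusted p = 0.00613). For zic2.S there were 1091 and 668 in sox8 CRISPR, against 45.3 and 16.7 in control (log2 fold change 4.90, limma adjusted p = 0.0273). In each homeolog of the pan-neural genes sox2 and sox3 the groups did not overlap, with sox8 CRISPR the higher, and none was called. In each homeolog of sox11 the groups did not overlap either, with sox8 CRISPR the lower, and none was called. For sox11.L there were 496 and 361 in sox8 CRISPR, against 837 and 668 in control. Of the 57 genes, 21 lay above both controls in both sox8 CRISPR libraries, against 17% of all genes, and 17 lay below. The share of all genes that lay below was not counted, so the 17 cannot be judged against it. With limma, 14 were higher and 6 lower at an unadjusted p under 0.05. Without any 1 library 0 genes of the neural plate list were called.

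Markers of dorsal tissue were higher, and those of ventral tissue lower, in sox8 CRISPR than in control. Of 36 organizer genes, 9 were called higher and 0 lower (median log2 fold change 3.73), and their summed level was 129728 and 51646 normalized counts in sox8 CRISPR, against 17317 and 31449 in control. The defining marker chrd.1.L had 8702 and 917 normalized counts in sox8 CRISPR, and chrd.2.L had 11979 and 1483. Both were at 0 in both controls. The genes gsc.L and gsc.S held 307 to 530 in sox8 CRISPR, against 0 to 18.7 in control. Neither gsc homeolog was called (limma adjusted p = 0.0580 for gsc.L and 0.107 for gsc.S). Of 49 BMP ventral genes, 16 were called lower and 0 higher (median -4.28), led by szl.S, gata2.S and hoxa9.L. Leaving out any 1 library left 0 calls in both lists, and DESeq2 called 18 organizer genes higher and 27 BMP ventral genes lower. Both lists were drawn up with results of these libraries known, so their direction is not independent evidence. Whether the irx values follow the share of dorsal tissue in an explant was not tested.

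Other tissues gave few calls. Of 31 neural border and crest genes 1 was called, msx2.L, which fell, and of 38 mesoderm genes 1 was called, evx1.L, which also fell. At an unadjusted limma p under 0.05, 5 border and crest genes were higher and 7 lower, and 7 mesoderm genes were higher and 11 lower. Of all genes, 3.01% were higher at that threshold. In 36 epidermal and 31 endodermal genes 0 were called by limma, with 3 higher and 3 lower epidermal genes and 3 higher and 4 lower endodermal genes at an unadjusted p under 0.05. Summed epidermal levels were 88795 and 81059 normalized counts in sox8 CRISPR, against 43768 and 69704 in control, and the endodermal ones 66977 and 74163 in sox8 CRISPR, against 27257 and 49948 in control. Such sums are weighted to abundant genes. The median log2 fold change was 0.26 for the epidermal genes and -0.46 for the endodermal genes, beside -0.16 for all genes. The part of these tissues in the irx values was not tested.

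**Figure D4:**
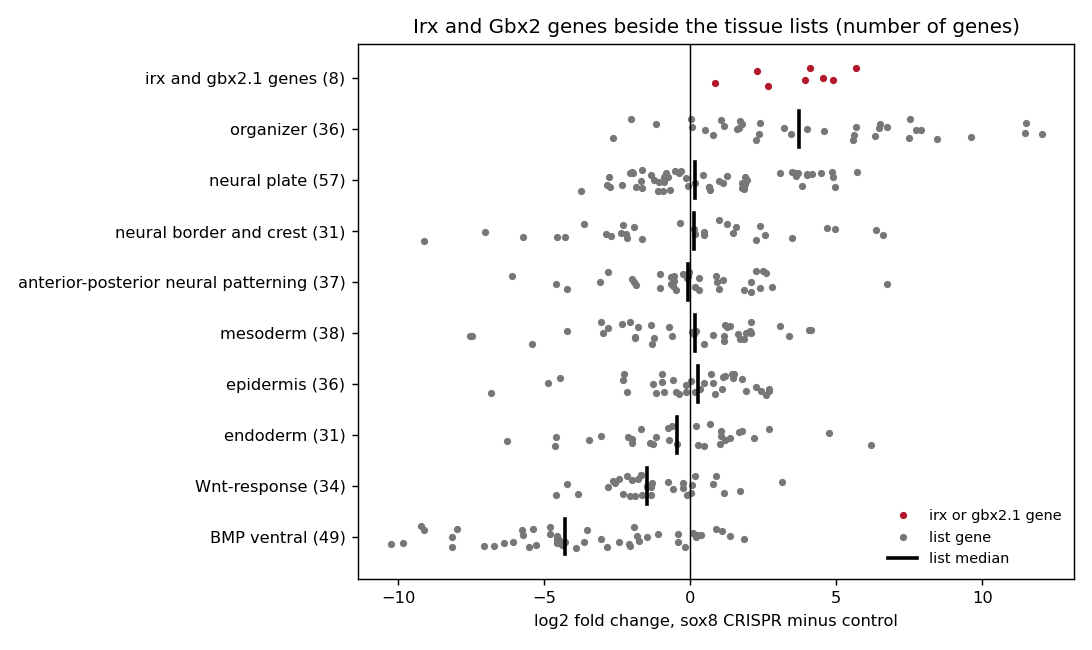
Log2 fold changes (sox8 CRISPR minus control, horizontal axis) of the irx and gbx2.1 genes in red and of the genes of 9 tissue and pathway lists in grey, with list medians as black bars and the number of genes in brackets. Organizer genes lie mostly to the right of 0 (median 3.73) and BMP ventral genes to the left (median -4.28), with the neural patterning list around 0.

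The profile of irx3.L over the 4 libraries was set beside that of 13715 other genes with a mean of 50 normalized counts or more, by the distance between their centred log2 values. The nearest were snrpa.S, krt12.4.L, idi1.L, sdf2.L and ska2.L, at distances from 0.059 to 0.100. Each was highest in sox8 CRISPR replicate 2, like irx3.L, and of 5 such genes none was called. With 4 libraries such likeness is a description and says nothing of shared control.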

How the data were processed

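Normalized counts, a signal on a linear scale, were deposited by the authors. Per the study's methods, reads were trimmed with cutadapt 4.4, cleared of ribosomal sequence, mapped by HISAT2 2.2.1 on the v10.1 assembly and counted per gene with featureCounts 2.0.6. Genes with a mean under 5 were dropped before DESeq2 scaled each library. How strand and multi-mapping reads were treated is not given in the sources used here. Dividing by the value of 1 read (0.625 to 1.56 normalized counts) gave whole reads, within 0.01, for 100% of values.

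Groups were compared two-sided with limma 3.58.1 under R 4.3.3, on log2 values with a pseudocount of 1 and a trend of the variance with level, with Benjamini-Hochberg adjustment over all genes. This scale understates changes of low genes. A gene was called at an adjusted p under 0.05 with a log2 fold change of more than 0.58 in size. Homeolog pairs were fitted likewise on .L minus .S. edgeR 4.0.16 and DESeq2 1.42.0 on recovered reads, pseudocounts of 0.5 and 5, a filter at a mean of 10, other scalings, a replicate block and leaving out each library were alternatives. Fits were tested on simulated data. Intervals are Clopper-Pearson and cover counting error only. Nothing states that libraries came from separate clutches, so p-values measure the spread between these libraries. Positions come from RefSeq, where all 8 genes matched. Members and lists were chosen with earlier results of these data known. Named were all 8 genes, sox8, up to 3 called genes of each list by size of change and the 5 genes nearest to irx3.L, the member with the highest mean. Other names were chosen after their values were seen.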

Additional observations from a re-analysis of the deposited data

How the results depend on the processing

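With 2 libraries per group, leaving one out leaves a lone library that is assumed to vary like the other group. Over all genes 72 were called, and the count was 109 with edgeR, 423 with DESeq2, 153 with a pseudocount of 5, 199 with quantile normalization and 0 without the intensity trend. Leaving out each library in turn gave 0 calls every time. Among the irx and gbx2.1 genes 0 were called, and 2 with DESeq2, with 0 in every other alternative listed in the methods. The deviations of same-numbered libraries from their group means had only a weak negative correlation (-0.22 across genes, which are not independent replicates). With the replicate block 86 genes and 0 of the 8 were called, and with the crossed pairing, chosen after seeing the data, 776 and 1 (irx1.S). Of 5640 homeolog pairs 0 were called, with 38 under the replicate block and 0 to 752 with a library left out (752 without sox8 CRISPR replicate 1). The .L minus .S difference changed sign for gbx2.1 without control replicate 1 (0.24, with a range from -3.51 to 0.24 over the libraries left out), and for irx1 (0.27, range -2.54 to 0.27) and irx2 (1.08, range -3.91 to 1.08) without sox8 CRISPR replicate 2. For gbx2.1 the control library then left held 0 reads of either copy. All 8 log2 fold changes stayed above 0 in each alternative that tested them, except irx2.L, which was 0 without sox8 CRISPR replicate 1. Under the filter at a mean of 10, irx2.L and gbx2.1.S were not tested. Quantile normalization moved the median of all genes from -0.16 to -0.02, and all 8 genes remained above 0. The cause of these differences was not tested.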
